A study of Saccharomyces cerevisiae with 268 samples.

Results

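The 26S proteasome subunit genes of budding yeast, Saccharomyces cerevisiae, are described here by their RNA scores in deletion strains. Each strain was labelled as a deletion of 1 transcription factor or related regulator. The 32 genes were taken by their systematic names from the 6419 feature rows of the deposited value table, of which 5615 were named genes with enough values to be tested. They comprise 10 genes of the base of the regulatory particle, 8 of its lid, 7 of the outer alpha ring of the core and 7 of the inner beta ring. All 32 were found and all passed the filter on missing values. The study sought a refined network of which regulator acts on which gene, and profiled Cy5-labelled total RNA of each deletion strain against Cy3-labelled RNA of wild type, both from mid-log growth. Each deletion had 1 column and no replicate. No source used here gives the strain background or the medium.

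The proteasome is the protease that degrades proteins tagged with ubiquitin. Its barrel-shaped core holds the catalytic sites, and the regulatory particle recognises, deubiquitinates, unfolds and feeds in the substrate. In budding yeast the subunit genes share an activator, RPN4, which is itself a short-lived substrate of the proteasome, so that impaired degradation raises synthesis of new subunits. PDR1, PDR3, YAP1 and HSF1 are known regulators of the RPN4 gene.

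Values are scores of a deletion strain over wild type, so RNA that was scarcer without the deleted gene has a score below 0. No source used here states the scale, the log base or how the values were normalized, and differences are therefore in score units, never fold changes. Columns are named by the deleted gene of the label. The deleted gene had its lowest score of all columns in 44.1% of the columns that held a value for it. In the others the label is not borne out in this way, and "the column labelled RPN4" and similar names follow the label only. Column medians over all genes lay between -0.43 and 0.16. Among MF(ALPHA)1, MF(ALPHA)2, MET17 and STE3, 2 or more lay below -2 in 31 columns, the column labelled SPT3 among them. The columns labelled GCR1, RAP1, REB1, HSF1, ABF1 and MCM1 were written with 6 significant digits, unlike the other columns. RAP1, REB1, HSF1, ABF1 and MCM1 are essential genes, so their deletion labels are not taken here to mean a full loss.

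Most proteasome genes had median scores below 0 in the deletion strains, as did most genes. Of the 32 genes, 27 (84.4%) had a median score below 0 over the columns, as did 66.9% of all genes tested. The median of these medians was -0.47 for the 32 and -0.17 for all genes. The lowest of these medians belonged to RPN10 (YHR200W), the ubiquitin receptor of the base, at -0.93, to RPN8 (YOR261C), a lid subunit, at -0.91, and to RPT6 (YGL048C), a base ATPase, at -0.87. The 5 genes with a median above 0 were RPN7 (0.37), PUP1 (0.29), PRE2 (0.26), RPT5 (0.19) and RPN9 (0.15). The scores of a proteasome gene varied over columns about as much as those of other genes: the median SD was 0.785 for the 32 genes and 0.718 for all genes tested. PUP1 (SD 0.431) and RPT5 (SD 0.469) varied least among the 32, and 99.6% and 97.7% of all genes, respectively, varied more.

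The median over the proteasome genes in a column was taken as their common level. Over the columns it had a median of -0.44, quartiles of -0.76 and -0.05 and an SD of 0.572. It lay below 0 in 77.6% of columns, below the column's median over all genes in 69.8%, below -1 in 38 columns and above 1 in 1. As the plot of column medians shows, the columns labelled GCR1, at -3.27, and RPN4, at -2.61, lay well under all others, since the next was SPT10 at -1.62. At the high end the column labelled MCM1, at 1.92, lay well over HAP2 at 0.78. Within a column the 32 genes did not move as 1 block: their SD ran from 0.353 in LEU3 to 1.78 in MCM1, with a median of 0.663.

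**Figure D1:**
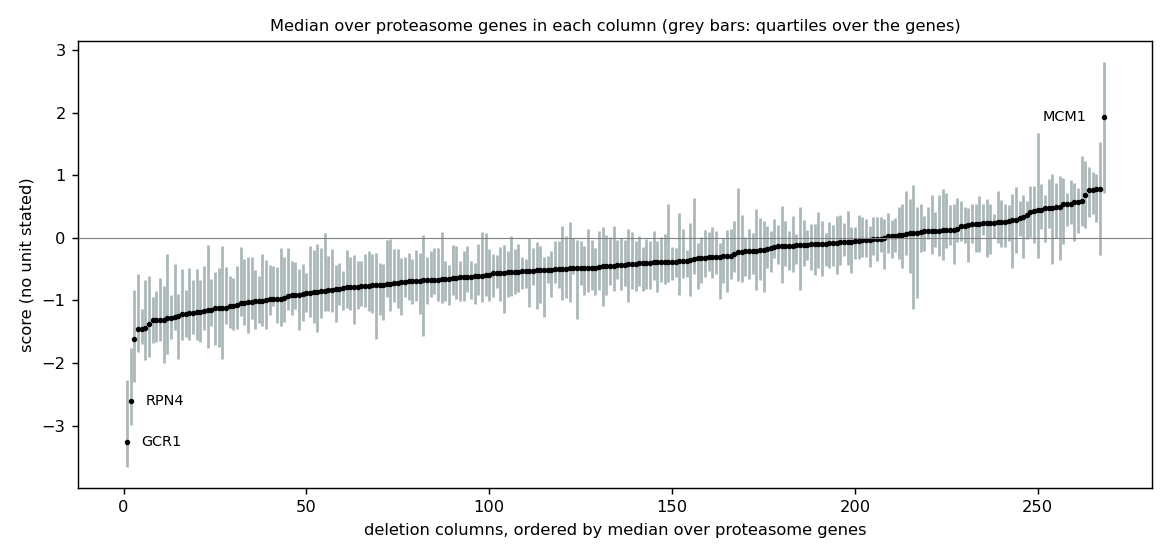
Median score over the proteasome genes (black points) in each column, in increasing order along the horizontal axis, with grey bars from the lower to the upper quartile of the genes. The columns labelled GCR1 (-3.27), RPN4 (-2.61) and MCM1 (1.92) lie apart from an otherwise gradual series. GCR1 and MCM1 are among the 6 columns written with 6 significant digits.

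Proteasome genes were low across all subcomplexes in the column labelled RPN4, the activator they share. Among the 31 genes with a value, RPN7 being the one without, 28 scored below -1, against 13% of all genes with a value in that column. The medians were -2.58 in the base, -2.61 in the lid, -2.77 in the alpha ring and -1.85 in the beta ring. The column rests on 1 sample, so these values are a description without a test.

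In the beta ring, the genes for 2 subunits without an active site of their own, PRE1 (YER012W) and PUP3, stood at -3.95 and -3.00. PRE3 (YJL001W), which carries the caspase-like site, stood at -3.93. The other catalytic genes were not low: PUP1 (YOR157C), for the trypsin-like site, was at 0.32 and PRE2 (YPR103W), for the chymotrypsin-like site, at 0.15. Over all columns these features followed the median of the other proteasome genes little, with an r of 0.13 for PUP1 and -0.20 for PRE2. How well they report their genes was not tested, and neither was whether PUP1 and PRE2 are true exceptions. PRE4 and PRE7, both structural subunits, were at -1.85 and -1.67. The beta ring thus held both the lowest and the highest of the 31 scores.

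In the alpha ring, which gates the entry of substrates, the scores lay between -3.21 for PRE8 and -1.55 for PRE9, the one alpha gene that yeast can live without. PRE10 was at -3.01, SCL1 at -2.78, PUP2 at -2.77, PRE5 at -2.60 and PRE6 at -2.47. Every alpha ring gene was therefore below -1.

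Among the base ATPases, which unfold substrates, RPT1 (YKL145W) was lowest at -3.71. It was followed by RPT6 at -3.24, RPT4 at -2.98, RPT3 at -2.07, RPT2 at -1.90 and RPT5 at -1.21. The scaffold genes RPN2 (YIL075C) and RPN1 (YHR027C) were at -3.40 and -2.95. The ubiquitin receptor genes RPN10 and RPN13 were at -2.20 and -0.98, and RPN13 was the one base gene that did not pass -1.

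In the lid, which removes ubiquitin chains through the protease RPN11, scores lay between -2.92 for RPN6 and -1.08 for RPN9. RPN12 was at -2.90, RPN8 at -2.65, RPN3 at -2.61, RPN11 at -2.12 and RPN5 at -1.42. All 7 lid genes with a value were below -1.

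For 8 of the 32 genes (RPN3, RPT1, RPT5, PRE5, PRE10, PRE3, PUP3 and PRE1) the column labelled RPN4 gave the lowest score of all columns, and for 17 it was among the 3 lowest. In 30 of 31 genes the score there was below the gene's own median, and in 20 it lay more than 2 SD below it. Proteasome genes also made up 18 of the 100 lowest genes in that column, 9 of the 50 lowest and 2 of the 20 lowest. The lowest genes of all there were others, MFA1 (-6.54) and BAR1 (-6.12), both used by a cells in mating. AGA2 (-5.49) and STE2 (-4.19), of the same a-specific class, were low as well. The part that these low mating genes mark in the result was not tested.

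The RPN4 gene itself did not show its loss in the column labelled RPN4. Its score there was 0.15, while its other scores had a median of 0.07 with an SD of 0.557, and 56.7% of them were lower. No source used here gives probe positions. Over the other 261 columns with a value, the RPN4 score and the proteasome median had a Pearson r of -0.07 and a Spearman rho of -0.10, given as a description. In the 5 columns with the lowest RPN4 scores, from -2.18 in DAL82 to -1.17 in SIN4, the proteasome median lay between -0.61 and 0.45. In the 5 with the highest, from 1.23 in XBP1 to 1.77 in RSC2, it lay between -1.19 and 0.28. The ranges overlap. Since this feature was not low in the column labelled RPN4, how well it reports RPN4 RNA was not tested.

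**Figure D2:**
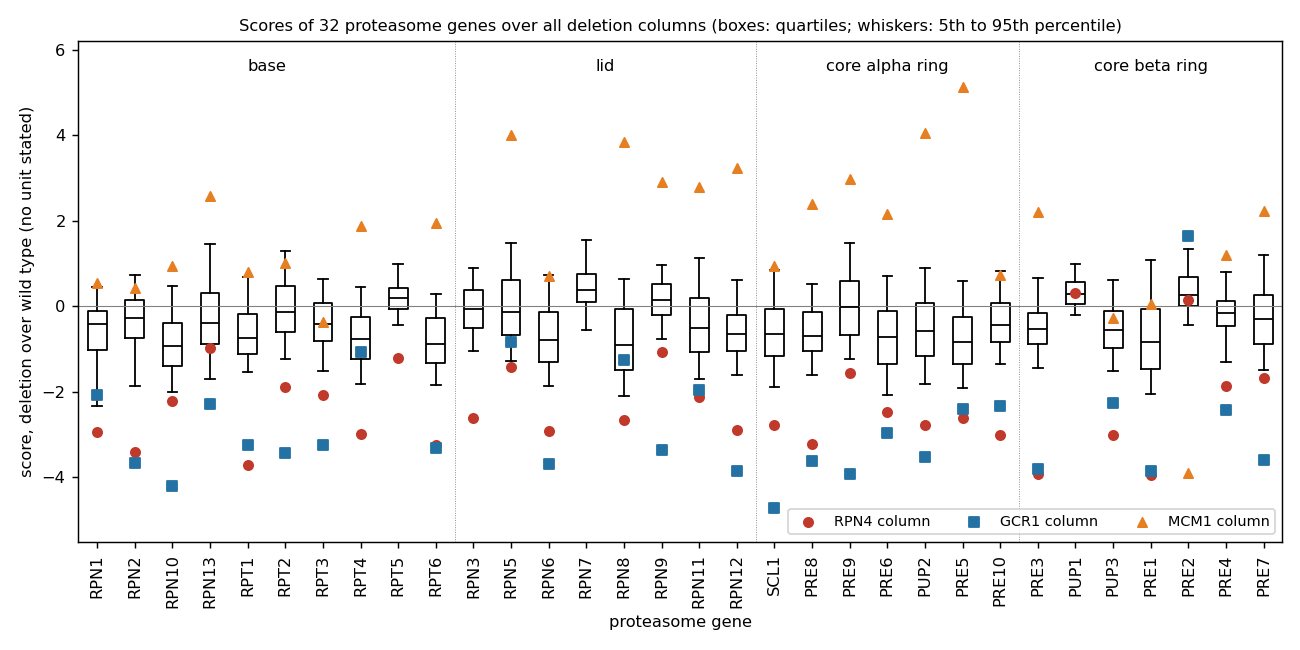
Scores of the 32 proteasome genes over all columns, grouped by subcomplex, with boxes at the quartiles, whiskers at the 5th and 95th percentiles and markers for the columns labelled RPN4, GCR1 and MCM1. RPN4 markers lie below the boxes except for PUP1 (0.32) and PRE2 (0.15), and PRE2 runs against the other genes in the GCR1 (1.64) and MCM1 (-3.89) columns.

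Other genes around the proteasome were less uniformly low in the column labelled RPN4. Of 15 assembly and associated factors with a value, 5 lay below -1 and 0 above 1, with a median of -0.51. The lowest were UMP1 (-2.33), a chaperone of core assembly, PBA1 (-1.30) and ADD66 (-1.25), which help to build the alpha ring. TMA17 (0.51), NAS2 (0.38) and RPN14 (0.19), all linked to assembly of the base, were highest.

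Of 22 genes of the ubiquitin and Cdc48 system, 7 were below -1 and 1 above 1 in the same column, with a median of -0.59. The lowest were DSK2 (-3.49), a shuttle that brings ubiquitinated proteins to the proteasome, CDC48 (-3.03), the segregase ATPase, and UBA1 (-2.97), the ubiquitin-activating enzyme. DOA4 (1.0), UFD4 (0.78) and UFD2 (0.67) were highest.

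Of 23 heat shock chaperones, 2 were below -1 and 6 above 1 in that column, where 8.28% of all genes were above 1, and their median was 0.13. HSP104 (3.53), a disaggregase, SSE2 (3.18) and SSA1 (2.25), of the Hsp70 and Hsp110 families, were highest. HSP10 (-1.09), HSP60 (-1.01) and SBA1 (-1.0) were lowest.

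The column labelled GCR1, the activator of glycolytic genes, gave the lowest proteasome median. Like REB1 and MCM1, which also lie near the ends of the ranking, it is one of the 6 columns written with 6 significant digits. The part of that difference between columns in the ranking was not tested. GCR1 itself stood at -2.04 in its column, below its median of -0.81 but not at its lowest score. Of the 28 proteasome genes with a value, 26 scored below -1, against 30.6% of all genes with a value there. It held the lowest score of 13 of the 32 genes, among them SCL1 (YGL011C), at -4.73, RPN10 at -4.19 and PRE9 at -3.91. RPN5, at -0.82, and PRE2, at 1.64, did not pass -1. By contrast with the column labelled RPN4, 0 of the 100 lowest genes of this column were proteasome genes, and its 100th lowest gene stood at -5.90. Over the 28 genes with values in both columns, their scores in the columns labelled GCR1 and RPN4 had an r of 0.50, a description over genes that are not independent replicates.

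In the GCR1 column heat shock chaperones were low too, with a median of -2.83 and 14 of 22 below -1, and SSC1 (-5.92), HSP60 (-5.74) and HSC82 (-5.05) were lowest. The assembly and associated factors were not low as a list: their median was -0.01, against a column median of -0.10, and 2 of 13 were below -1, ADD66 at -2.47 and UBP6, a deubiquitinase, at -1.24. Of the ubiquitin and Cdc48 system, 8 of 21 were below -1, where 30.6% of all genes were, led by RAD23 (-3.36), a shuttle protein, CDC48 (-3.34) and SHP1 (-3.02), a Cdc48 cofactor.

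The next lowest columns were SPT10 (median -1.62), REB1 (-1.46) and ERT1 (-1.46). In SPT10, a histone gene activator, 23 of 32 proteasome genes were below -1, against 31.8% of all genes. In REB1, a general regulatory factor, 16 of 29 were below -1, against 25.3%, with RPN12 at -3.82 and PRE2 at 1.69. In ERT1, a regulator of gluconeogenic genes, 24 of 31 were below -1, against 24.2%, with RPN8 at -2.34 and PRE2 at 1.39. PRE2 was the highest proteasome gene in all 3. SPT10 itself was at -0.04 in its column, REB1 at -1.09 and ERT1 at -2.84, and only ERT1 was at the lowest of all its scores.

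The highest medians came from MCM1 (1.92), HAP2 (0.78), SMP1 (0.77), MGA2 (0.76) and MOT3 (0.76). In the column labelled MCM1, 17 of 28 proteasome genes scored above 1, against 28.8% of all genes with a value there, and 11 of the 32 had their highest score in it. PRE5 (YMR314W), an alpha ring gene, was at 5.12, PUP2 (YGR253C) at 4.06, RPN5 (YDL147W) at 4.02 and RPN8 at 3.84. PRE2, at -3.89, was the one of the 28 below -1, and this was its lowest score of all columns. MCM1 itself stood at 5.03 in that column, its highest score, which goes against the label.

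In HAP2, which lacks a subunit of the activator of respiratory genes, 12 of 31 proteasome genes were above 1, against 16.1%. The subcomplexes differed there: the alpha ring had a median of 1.53 and the beta ring of 1.36, while the lid was at 0.18 and the base at -0.17, with RPN1 at -2.32. This column also had the steepest trend of score against gene length, described further on, and with it removed the median over the proteasome genes was 0.31 in place of 0.78. HAP2 itself stood at -0.16 in its column, above its median of -0.35. In SMP1, 9 of 32 were above 1, against 11.9%, and in MOT3 9 of 32, against 11.4%. In MGA2, which lacks an activator of fatty acid desaturation, 10 of 32 were above 1, against 13.7%, and no proteasome gene was below its own median. Here heat shock chaperones were high as well, with a median of 1.57 and 15 of 23 above 1.

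Over the columns the proteasome genes rose and fell together more than genes in general. The 496 pairs had a median Pearson r of 0.386, from -0.316 for RPN12 with PRE2 to 0.885 for PRE9 with PUP2, and 36.7% of pairs were above 0.5. Among all genes with a value in every column the median r was 0.041, with 3.51% of pairs above 0.5. Quantile normalization between columns lowered the median r of the 32 to 0.246 and that of all such genes to -0.000703. These correlations are over columns that share the array platform and reference RNA, and are given as a description. The median r was 0.023 for the assembly and associated factors, 0.041 for the ubiquitin and Cdc48 system and 0.192 for the heat shock chaperones.

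The genes with missing values followed the others little. The 27 genes with a value in every column had a median pairwise r of 0.508. RPN3 (4 columns missing), PUP1 (13), RPN7 (17), PRE2 (20) and RPT5 (22) had a median r of 0.031 with the 27, and of 0.101 among themselves. The split is not sharp: the median r with the 27 was 0.178 for RPN3 and 0.038 for RPN1, which is itself one of the 27. In each column the median over the 27 and the median over the 5 were set side by side, and their r over the columns was -0.16. In the column labelled RPN4 these medians were -2.77 and -0.53, and yet RPN3 (-2.61) and RPT5 (-1.21) each had their lowest score there. Spot intensities were not used, so how brightly these 5 genes were measured was not tested.

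Within the 27, the alpha ring genes were closest, with a median r of 0.669 over 21 pairs. The beta ring had 0.550 over 10 pairs, the lid 0.507 over 15 and the base 0.483 over 36. The alpha ring stayed first with a length trend removed from each column, but the order of the others turned round and the beta ring came last at 0.363. Across subcomplexes, in the deposited scores, the alpha ring correlated at 0.603 with the beta ring and at 0.599 with the lid. Both were closer than the base was within itself. With the length trend removed this held for the alpha ring with the lid. The median r of the alpha ring with the beta ring then came below that within the base, at 0.484. RPN11 (YFR004W), the lid's deubiquitinase, correlated at 0.872 with PUP2 and at 0.845 with PRE9. Set against the median of all other proteasome genes, PUP2 (0.889), PRE9 (0.872), PRE6 (0.863) and RPN11 (0.838) followed it most closely. RPN1 (0.145), RPN2 (0.353), RPN9 (0.370) and PRE4 (0.457) followed it least among the 27. RPN1 and RPN2 are the longest proteasome genes, at 2982 and 2838 bases, and this ranking was not taken again with the length trend removed.

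**Figure D3:**
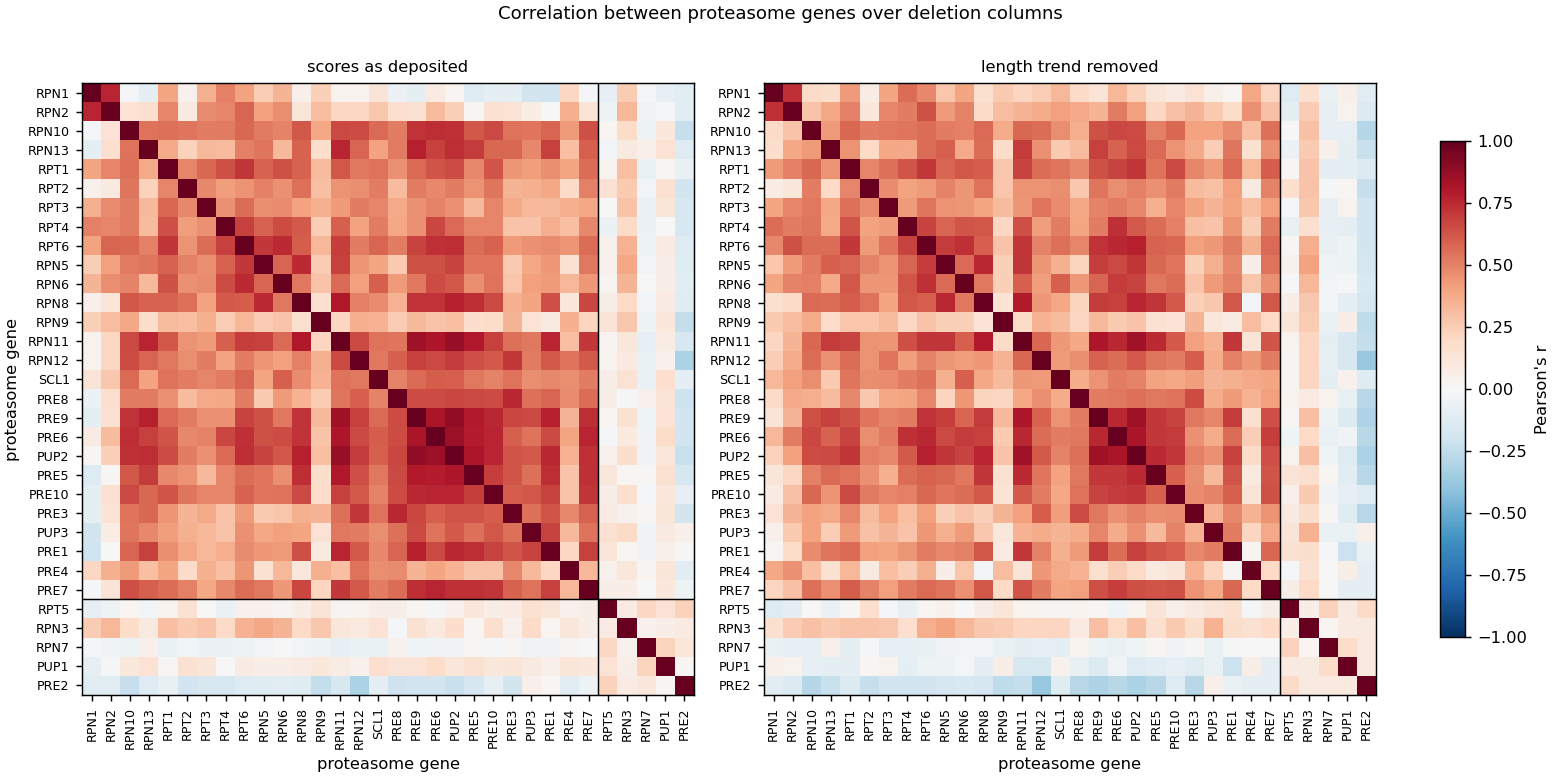
Pearson's r between the 32 proteasome genes over the columns, from the deposited scores (left) and with the trend of score against coding length removed in each column (right), with black lines before the 5 genes with missing values. The 27 complete genes form a positive block (median r 0.508 on the left and 0.464 on the right), RPN1 and RPN2 pair with each other, and the 5 genes below the line lie closer to 0, from -0.316 for PRE2 with RPN12 to 0.386 for RPN3 with RPN5 on the left.

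The common level moved with a trend of score against gene length within columns. Coding lengths were taken from the R64 reference table. Across genes of a column, Spearman's rho of score with length ran from -0.58 in HAP2 to 0.36, with a median of 0.02. Over all columns the proteasome median had an r of -0.49 and a rho of -0.51 with that length rho, so it was lower where long genes scored higher. Proteasome genes are mostly short, with a median length of 865.5 bases against 1272 for all genes, and 21 of the 32 were under the latter. The r of a gene's score with the length rho ran from -0.67 for PRE5 and PRE1 to 0.51 for RPN1, the longest at 2982 bases.

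The scores were therefore taken again after a smooth length trend was removed from each column, an alternative chosen after the data were seen. The column labelled RPN4, whose length rho was -0.02, kept its median, at -2.63, with 28 genes below -1 and the lowest score of 11 genes. GCR1 moved to -3.07 and MCM1 to 1.68. HAP2 fell from the second highest median to 0.31. The median pairwise r of the 32 genes was 0.374. Among the 27 complete genes it was 0.553 in the alpha ring, 0.484 in the base, 0.439 in the lid and 0.363 in the beta ring.

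**Figure D4:**
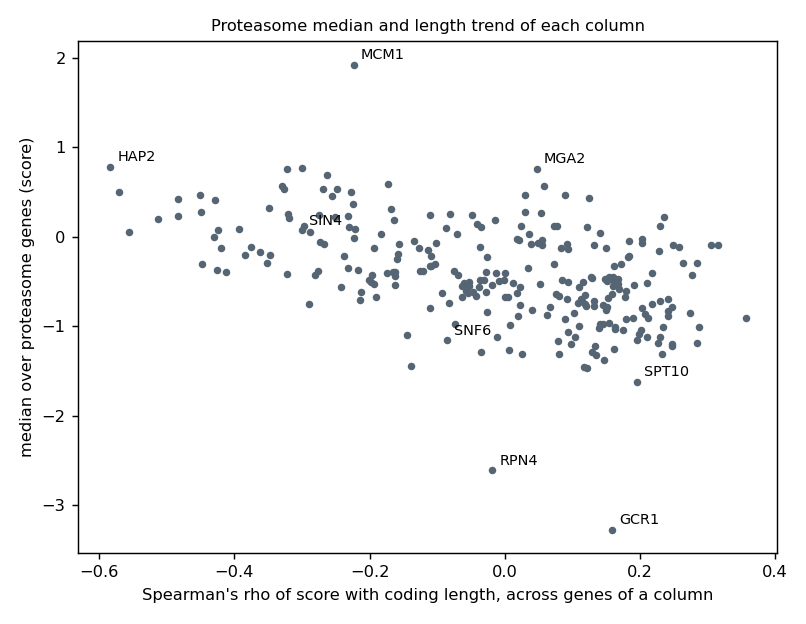
Median score over the proteasome genes against Spearman's rho of score with coding length, 1 point for each column. The points slope downwards (r = -0.49), HAP2 lies at the left end (rho -0.58), and the columns labelled RPN4 and GCR1 lie far below the slope.

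Outside the proteasome, 463 of 5583 genes correlated above 0.5 with the proteasome median over columns. The highest r belonged to SBA1 (0.764), an Hsp90 cochaperone, CLC1 (0.755), clathrin light chain, VMA8 (0.731), of the vacuolar proton pump, and VPS29 (0.722), of retromer. CAB4 (0.717), of coenzyme A synthesis, SHP1 (0.714), SKI6 (0.709), of the exosome, SEC17 (0.706) and SEC66 (0.701), both of secretion, and CHZ1 (0.700), a histone chaperone, came next. The most negative were FRE8 (-0.54), VHT1 (-0.52), the biotin transporter, and HMG2 (-0.50), of sterol synthesis. Several close followers were not low in the column labelled RPN4: CLC1 stood at 0.64, VMA8 at 0.57 and CHZ1 at 0.60 there, and SHP1, at -2.05, was the lowest of the 10. In the GCR1 column all 10 were below -1, from -3.77 for SBA1 to -1.66 for SEC17. With the length trend removed SBA1 (0.701), SHP1 (0.700) and CLC1 (0.675) came first, followed by SEC63 and UBP6. CAB4, CHZ1, SEC66 and SKI6 then left the 10 highest, and other genes took the places of FRE8, VHT1 and HMG2.

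Strains that lack parts of 1 complex, or related regulators, were grouped into 7 sets and compared with the columns outside every set. In these tests limma was fitted to all 5615 genes with 1 mean per set, with Benjamini-Hochberg adjustment over them. The outside group holds some strains that lack other subunits of these complexes, POP2 of Ccr4-Not, TAF14 of SWI/SNF and ASH1 and UME6 of Rpd3L, and leaving these 4 out changed no call of a proteasome gene that passed. Strains of a set are different genotypes. The sets were chosen with earlier results of these data known, which the p-values do not allow for. The SEs and p-values rest on a spread pooled over all columns, most of them outside every set. They are therefore too small where the strains of a set differ more than the outside columns do. Among the proteasome genes that passed, the SD was larger within the set for every call but RPN8 in SWI/SNF (0.90, against 0.98 outside).

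The columns labelled with regulators of RPN4 did not share a shift of the proteasome genes. Their proteasome medians were -0.39 in PDR1, -0.79 in PDR3, -0.25 in YAP1 and 0.24 in HSF1, against -0.40 ± 0.56 (mean ± SD) over the outside columns. PDR1 itself was at the lowest of its scores in its column, at -3.04. PDR3 (-0.44), YAP1 (-1.09) and HSF1 (-0.84) were not at their lowest in theirs, so whether those strains lost the regulator was not tested. Of the 32 genes 0 passed the test by limma, with 0.0712% of all genes passing, and 2 had an unadjusted p under 0.05. The lowest adjusted p by limma was 0.249, for RPT5, which was 0.72 ± 0.23 (SE) higher than outside. RPT5 stood at 2.87 in PDR1, 0.04 in PDR3, 0.35 in YAP1 and 0.44 in HSF1. The PDR1 column, lacking an activator of multidrug resistance, thus set this difference, and RPT5 had its highest score there. RPN9 (3.26) was also at its highest in PDR1, and PUP1 (1.95), RPN7 (1.75) and RPT2 (1.54) were above 1. Of these genes RPT5, PUP1 and RPN7 are among those with missing values, which followed the other proteasome genes little. In the column labelled HSF1, the heat shock factor, 16 of 23 chaperones lay below -1, with a median of -3.17. There 3 of 32 proteasome genes lay below -1, against 24.5% of all genes. The lowest proteasome gene there was RPN1 at -2.88.

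RPN1 and RPN2 fell in the strains lacking SWI/SNF, a complex that remodels nucleosomes. These 2 genes encode the large scaffold subunits of the base, which bind ubiquitin shuttles and receptors. RPN1 stood at -4.07 in SWI3, -2.52 in SNF5, -3.10 in SNF2, -4.86 in SNF6 and -1.0 in SNF11. In the columns outside it ran from -4.00 to 1.82 with a median of -0.37. The groups overlapped, with 51 outside columns below SNF11, but none was below SNF6. RPN1 differed from outside by -2.60 ± 0.37 (SE; limma, adjusted p = 6.16e-10). Its SD was 1.48 within the set and 0.77 outside, so this pooled SE and p are too small for the spread among these strains. The deleted genes SWI3 (-4.64) and SNF5 (-2.14) were at the lowest of their scores in their own columns. SNF2 (-1.06), SNF6 (-0.87) and SNF11 (-1.67) were not at their lowest in theirs, so whether those strains lost the gene was not tested.

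RPN2 stood at -4.23 in SWI3, -2.67 in SNF5, -3.06 in SNF2, -5.47 in SNF6 and 0.64 in SNF11. Outside it ran from -3.77 to 3.66 with a median of -0.24. SNF11 was the one strain in which RPN2 was not low. RPN2 differed by -2.68 ± 0.39 (SE; limma, adjusted p = 2.83e-09). Here too the pooled SE and p are too small, as the SD was 2.29 within the set and 0.80 outside. Both genes had their lowest score of all columns in SNF6, and both passed under all 16 alternative settings tried. Quantile normalization between columns brought the differences down to -1.06 for both (limma, adjusted p = 0.0173 for RPN1 and 0.0109 for RPN2).

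The count of proteasome genes that passed was no larger than among all genes. In all, 6 of the 32 fell, where 21.1% of all genes tested fell, and 2 rose, where 11.3% of all genes rose. These shares are near the background, so the count is no result about proteasome genes. It depends on SNF11, whose proteasome median was 0.59 against -1.44 to -0.38 in the other 4 strains: without it 11 fell and 1 rose, and RPN8 and PRE10 lost their calls. That is 37.5% of the 32, where 38% of all genes tested then passed. The median difference over the 32 was -0.24, against -0.07 over all genes tested. Besides the scaffold genes, RPT6 fell by 1.13 ± 0.32 (SE), RPN9 by 1.02 ± 0.29, RPT4 by 0.95 ± 0.34 and PRE4 by 0.82 ± 0.28. RPN8 (1.15 ± 0.44, SE) and PRE10 (0.95 ± 0.31, SE) rose. Each of these 6 lost its call under at least 2 of the 16 alternatives, named in the closing part.

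In the SWI/SNF strains the median over the other 30 proteasome genes was -1.27 in SWI3, -0.26 in SNF5, -1.0 in SNF2, -1.10 in SNF6 and 0.59 in SNF11. RPN1 and RPN2 lay below all 30 in SWI3, SNF5, SNF2 and SNF6. Both genes lay below all the others with a value in 19 columns, of which 4 were SWI/SNF strains, 2 Mediator tail strains, 1 HSF1 and 12 outside every set. Among the last were TUP1, at -4.0 for RPN1 and -3.59 for RPN2, and CST6, at -3.44 and -3.77, both chosen after their values were seen. Genes at least as long as RPN2 had a median of -0.30 in SNF6, where 43 of 594 were below RPN1 and 28 below RPN2. In SWI3, SNF5 and SNF2 between 36 and 59 of such genes lay below either. In SNF11, 17.1% of such genes lay below RPN1, and 502 of 592 lay below RPN2. The a-specific gene BAR1 lay between -6.98 and -5.63 in these 4 strains and at -2.64 in SNF11, and its part in the result was not tested. RPN1 and RPN2 correlated at 0.765 over all columns.

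Strains lacking the tail of Mediator, which links activators to RNA polymerase II, had 2 of 32 proteasome genes lower, RPN1 and RPN2, where 2.35% of all genes tested were lower. RPN1 stood at -4.60 in SIN4, -2.09 in GAL11, -1.47 in PGD1 and -1.24 in NUT1, all below the outside median of -0.37. It differed by -1.84 ± 0.41 (SE; limma, adjusted p = 0.00555). RPN2 stood at -5.27 in SIN4, -0.94 in GAL11, -1.85 in PGD1 and -1.46 in NUT1, all below the outside median of -0.24. It differed by -2.10 ± 0.44 (SE; limma, adjusted p = 0.00368). Within the set the SD was 1.54 for RPN1 and 1.96 for RPN2, against 0.77 and 0.80 outside. The pooled SEs and p-values are thus too small for the spread among these strains. SIN4 stood apart from the other 3 strains in both genes, while the SIN4 gene itself, at 0.03, did not show its loss there. Both calls were lost without SIN4, where the differences were down to -1.09 for RPN1 and -1.14 for RPN2 (limma, adjusted p = 0.521 for each). Over all genes tested 0 passed without SIN4, against 248 with it, so this loss was not particular to RPN1 and RPN2. Quantile normalization brought the differences to -1.27 for RPN1, which then missed the threshold, and -1.35 for RPN2 (limma, adjusted p = 0.0694 and 0.0398). The median over the other 30 genes in SIN4 was 0.19, and RPN1 and RPN2 lay below all of them. Of the genes at least as long as RPN2, 28 of 594 lay below RPN1 and 16 below RPN2 in SIN4. In GAL11, 9 of 590 lay below RPN1 and 150 below RPN2, in NUT1 91 of 587 lay below RPN1 and 62 below RPN2, and in PGD1 17.8% lay below RPN1 and 66 of 595 below RPN2. The length rho was -0.43 in GAL11 and -0.42 in PGD1, near the low end of all columns. With the length trend removed the differences were -1.51 for RPN1 and -1.77 for RPN2 (limma, adjusted p = 0.0233 and 0.0228). Over all genes tested 44 then passed, in place of 248.

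**Figure D5:**
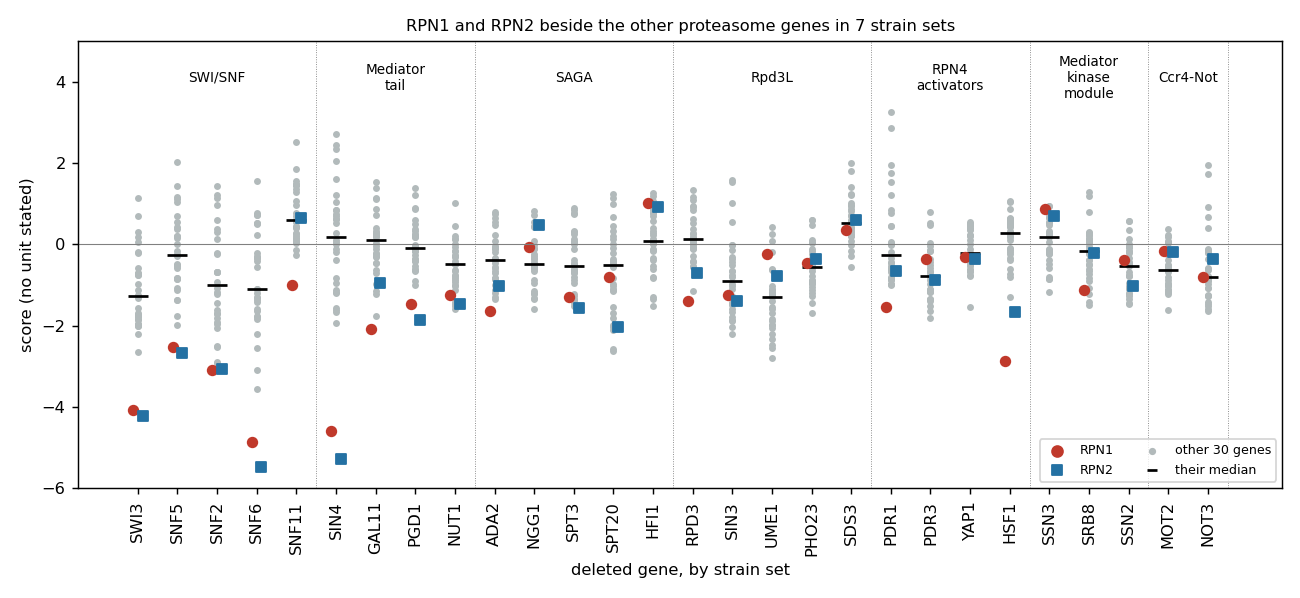
Scores of RPN1 (red circles), RPN2 (blue squares) and the other 30 proteasome genes (grey points, black bar at their median) in each strain of the 7 sets. RPN1 and RPN2 both lie below all 30 in SWI3, SNF5, SNF2, SNF6, SIN4, PGD1 and HSF1, and reach their lowest scores in SNF6 (-4.86 and -5.47).

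In strains lacking SAGA, a histone acetylating coactivator, 1 of 32 proteasome genes was lower, where 6.59% of all genes tested were lower. PRE4 (YFR050C) stood at 0.09 in ADA2, -0.35 in NGG1, -1.44 in SPT3, -2.04 in SPT20 and -1.35 in HFI1, against an outside range from -2.42 to 1.60 with a median of -0.14. The groups overlapped, and the first 2 strains were near the outside median. PRE4 differed by -0.88 ± 0.28 (SE; limma, adjusted p = 0.0291), and this call was lost without SPT3, SPT20 or HFI1 and under 3 other settings (adjusted p up to 0.385 by limma). In the columns labelled NGG1, SPT3 and SPT20 the own gene was at 1.04, 1.47 and 0.31, each above its median over columns.

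No proteasome gene passed in the other sets. In Rpd3L, a histone deacetylase complex, 0 of 32 passed by limma, where 0.463% of all genes did, and 0 had an unadjusted p under 0.05. Their medians there spread widely, at 0.11 in RPD3, -1.0 in SIN3, -1.25 in UME1, -0.51 in PHO23 and 0.54 in SDS3. In the kinase module of Mediator 0 of 32 passed by limma (0.0534% of all genes) and 0 had an unadjusted p under 0.05, with medians of 0.22 in SSN3, -0.21 in SRB8 and -0.52 in SSN2. In Ccr4-Not, which shortens poly(A) tails, 0 of 32 passed by limma (0.0178% of all genes) and 0 had an unadjusted p under 0.05, with medians of -0.59 in MOT2 and -0.79 in NOT3.

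Single extreme scores of 3 genes lay on chromosomes that stood higher as a whole in that column. RPN2, on chromosome IX, had its highest score, 3.66, in UME6, where genes of that chromosome stood 2.26 above the column's median. RPT1, on chromosome XI, had its highest score, 2.99, in MAL33, where that chromosome stood 1.98 higher. PRE7 (YBL041W), on chromosome II, had its highest score, 4.36, in the column labelled ABF1, where that chromosome stood 1.09 higher. The part of the chromosome shift in these scores was not tested.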

How the data were processed

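The values are signed scores in the authors' deposited table, with 1 column per deletion strain; no source used here gives their scale, log base or normalization, or the number of arrays behind a column. The direction, deletion (Cy5) over wild type (Cy3), is per the labels. The table had 6419 features and 1.25% missing values. The 32 members were matched by systematic name; 5655 genes were found in the R64 reference gene table, used for names and coding lengths (96.4% of lengths are multiples of 3), and 5615 with a value in at least 80% of columns were tested. Members, gene lists, strain sets and tests were chosen with earlier results of these data known.

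The planned tests had assumed log ratios; limma 3.58.1 (R 4.3.3) was kept for the signed scores. It was fitted to all columns with 1 mean per set, eBayes and Benjamini-Hochberg adjustment over all genes tested (threshold 0.05), with each deleted gene masked in its own column. A check on simulated data drew genes independently, with equal spread inside and outside a set and an equal shift in all its strains. It therefore cannot vouch for calls where the strains of a set differ widely. Single columns were described by medians and by counts beyond 1 in size. The columns of a set are different genotypes. Named genes were the 32 members, the 10 genes most and the 3 least correlated with their median, RPN4, and the 3 highest and lowest of the assembly, ubiquitin and chaperone lists in a column described (HSP26 was not tested, fewer are named where fewer passed); columns named were those with the 5 lowest and 5 highest medians, RPN4 and the sets. Others (LEU3, DAL82, RSC2, UME6, MAL33, TUP1, CST6, SEC63, UBP6, the RPN4 extremes, the a-specific genes) were chosen after their values were seen. A planned motif search in promoters was not run, as no sequence was used here. Alternatives were column median centring, quantile normalization, gene filters, masking or leaving out columns, trended and robust eBayes, and each strain left out in turn; leaving out columns with a shifted chromosome, leaving out 4 outside strains that lack a subunit of a set's complex, and removing the length trend (loess, span 0.3) were added after the data were seen. The number of arrays limits the precision.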

Additional observations from a re-analysis of the deposited data

How the results depend on the processing

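All but 11 of the recomputed values stayed within 1.5 times the reported count, 1 SD (0.557, over the other columns) of the proteasome median in the RPN4 column, or 0.1 of the reported correlation; the changes from 8 to 12 and from 2 to 3 genes given below are exactly 1.5 times. Quantile normalization between columns left 4 proteasome genes passing for SWI/SNF (8 as reported; 521 in place of 1821 over all genes), 1 for the Mediator tail (2 as reported) and 0 for SAGA (1 as reported), and lowered the median pairwise correlation from 0.386 to 0.246. Without columns with low markers, or without columns with a shifted chromosome, 0 passed for SAGA. Leaving out each strain in turn gave between 5 (without SNF6) and 12 (without SNF11) for SWI/SNF, between 0 (without SIN4) and 3 (without NUT1) for the Mediator tail, and between 0 and 1 for SAGA, with 0 without SPT3, SPT20 or HFI1. The cause was not tested, beyond the fewer strains. For SWI/SNF, quantile normalization ended the calls of RPN9, PRE4, RPT6 and RPT4; the absence of SWI3 ended those of RPN9 and RPT4; of SNF5, PRE4 and PRE10; of SNF2, PRE4, RPT6 and RPT4; of SNF6, PRE4, RPT6, RPT4 and RPN8; of SNF11, RPN8 and PRE10; and of columns with a shifted chromosome, RPN9 and RPT4. With the length trend removed 10 passed for SWI/SNF. The sets that had 0 passing kept 0 under every alternative run. No paired analysis was possible because each deletion had 1 column and the labels carry no replicate numbers. Spot intensities were not used, so limits from signal over background could not be set.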
